A study of Rattus norvegicus with 6 samples.

Results

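The genes described here encode collagens, laminin chains and linking proteins of the basement membrane. They were chosen as every probe set whose array annotation names 1 of 10 genes, namely Col4a1, Col4a2, Col15a1, Col18a1, Col8a1, Lamb1, Lamb2, Lamc1, Nid1 and Tinagl1. All 10 genes were on the array, with 14 probe sets, out of 10411 named genes and 15866 probe sets that are not controls. Total RNA came from the left ventricles of 3 normal and 3 diabetic rats, and each heart was measured on its own single-colour Affymetrix array. The groups differ in their labelled state, normal or diabetic, and share the species and the tissue. How the animals became diabetic and for how long, and their strain, sex and age, are unknown here. The comparison asks which of these transcripts differ between the ventricles of diabetic and normal rats.

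A basement membrane is a thin sheet of matrix that wraps each cardiac muscle cell and underlies the endothelium of each capillary. Laminin trimers, each made of an alpha, a beta and a gamma chain, lie against the cell and bind its receptors. Type IV collagen forms a covalent network, nidogen links that network to laminin, and collagens XV and XVIII lie at the border with the fibrous interstitium. Capillaries lie beside nearly every muscle cell of the ventricle, so both kinds of basement membrane enter a sample of whole tissue.

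Upstream sequence is shown, because Col4a1 and Col4a2 are read in opposite directions from 1 shared region, and because Col15a1 and Tinagl1 had the largest fall and the largest rise of the 10 genes. The 3 stretches come from RefSeq on the rat assembly GRCr8, and 9 of the 10 genes matched an entry of that promoter table (Lamb2 did not). Capitals mark a GC box, searched as GGGCGG on both strands. The starts of Col4a1 and Col4a2 lie 76 bases apart, at chr16:84885521-84885596, shown on the strand of Col4a1. Col15a1 is shown for the 250 bases before its start (chr5:66297296-66297545, plus strand), and Tinagl1 likewise (chr5:147807264-147807513, minus strand).
Col4a1 and Col4a2, between the starts: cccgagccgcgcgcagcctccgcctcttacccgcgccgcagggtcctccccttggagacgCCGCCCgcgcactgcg
Col15a1, upstream: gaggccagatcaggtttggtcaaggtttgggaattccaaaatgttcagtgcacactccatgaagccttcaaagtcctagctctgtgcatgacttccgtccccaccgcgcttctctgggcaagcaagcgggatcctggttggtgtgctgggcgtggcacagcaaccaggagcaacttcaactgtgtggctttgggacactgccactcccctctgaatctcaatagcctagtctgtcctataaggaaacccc
Tinagl1, upstream: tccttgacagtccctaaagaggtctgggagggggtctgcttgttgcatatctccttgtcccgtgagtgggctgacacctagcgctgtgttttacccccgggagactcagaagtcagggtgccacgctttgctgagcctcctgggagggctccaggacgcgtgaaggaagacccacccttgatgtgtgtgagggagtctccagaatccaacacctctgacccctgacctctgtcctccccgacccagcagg

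Among windows of 300 bases around a gene's start (250 before and 50 after), 7 of the 9 matched genes held a GC box, against 33.1% of all 33469 windows. Col15a1 and Tinagl1 were the 2 that did not. The letters CCAAT, searched on both strands, were in 3 of the 9 windows (Col4a1, Col4a2 and Nid1), against 37.5% of all windows, and TATAAA was in none, against 14.2%. The printed stretches hold 1 match to these 3 motifs in all, so none overlaps another. The Col4a1 and Col4a2 windows share 176 bases, so their matches are not separate observations. The share of G and C was 75.0% for Col4a1 and 73.7% for Col4a2, while it was 55.0% for Col15a1 and 60.3% for Tinagl1, against a median of 51.7% over all windows. These matches describe letters and not binding.

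Most of the basement membrane genes had less signal in the diabetic ventricles, and Tinagl1 had more. Of the 14 probe sets, 13 were bright enough to be tested. Of these 13, 3 fell (Col15a1, Col4a2 and 1 of the 2 probe sets of Col4a1), 1 rose (Tinagl1) and 9 did not pass the threshold of an adjusted p under 0.05 (limma's moderated test, adjusted by Benjamini and Hochberg over 9519 tested probe sets). Over all tested probe sets 1.38% fell and 1.50% rose. In 10 of the 13 every diabetic array lay below every normal array, as it did in 13.6% of all tested probe sets. In 2 of the 13, Lamb2 and Tinagl1, every diabetic array lay above every normal array (12.1% of all). The log2 fold change was negative in 11 of the 13 and in 52.0% of all tested probe sets. The median log2 fold change of the 13 was -0.57, beside -0.01 for all tested probe sets. The members, and the lists below, were chosen with earlier results of these data known. Their shares beside those of all probe sets are therefore a description and not a test. The count that fell was 1 without normal 1, 2 or 3 or diabetic 3 and 2 without diabetic 1 or 2, while the count that rose stayed at 1 with each array left out. In whole tissue, fewer cells of a type and less RNA per cell cannot be told apart.

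**Figure D1:**
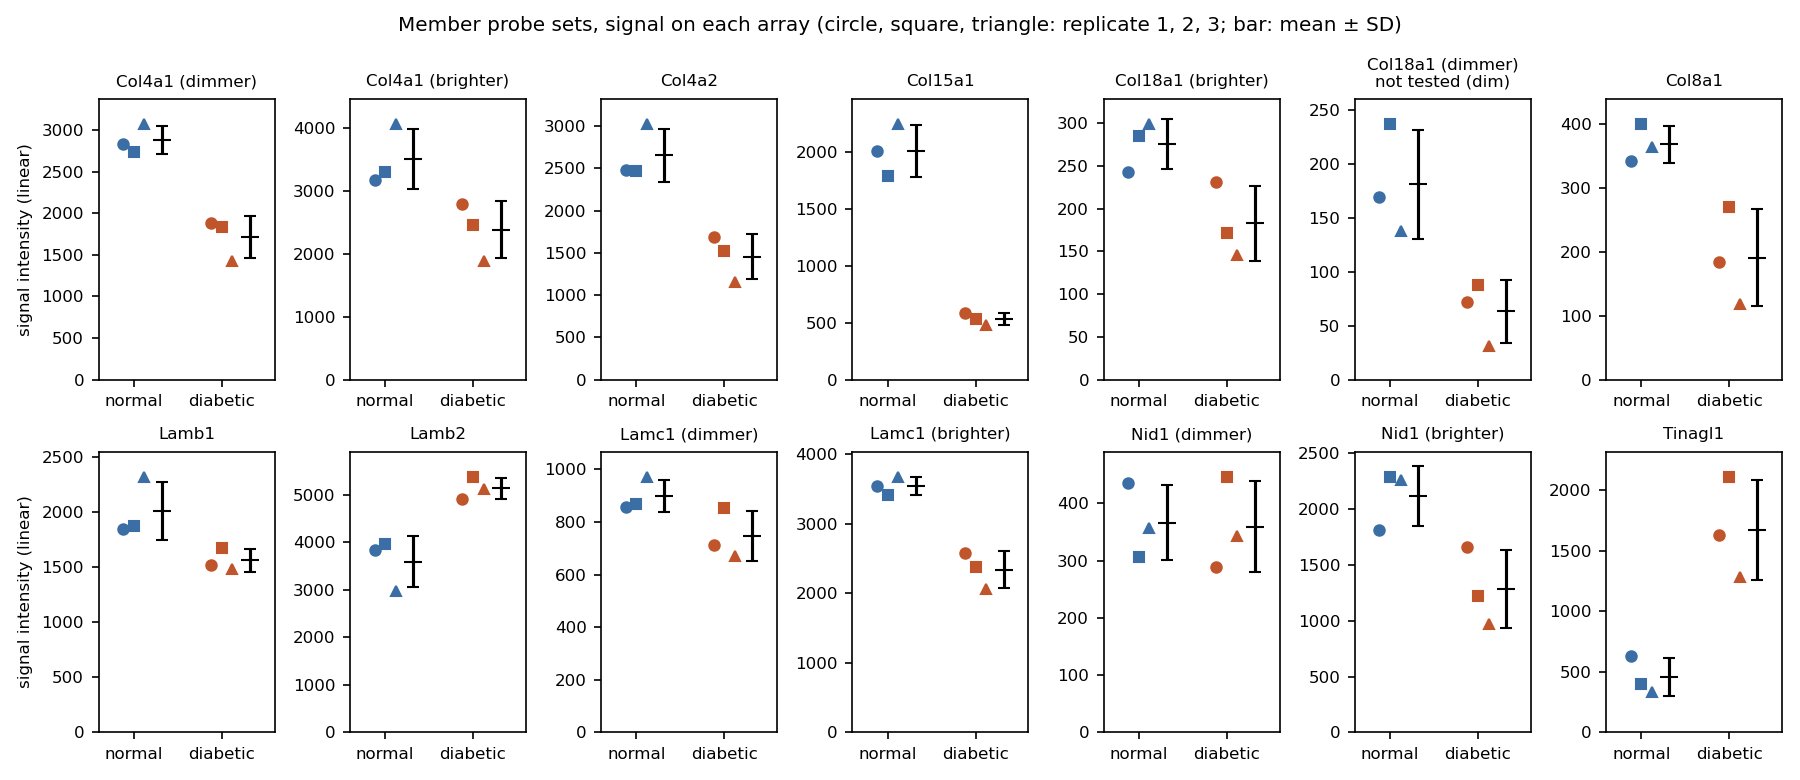
Signal intensity (linear scale, from 0) of each of the 14 member probe sets on the 3 normal (blue) and 3 diabetic (orange) arrays, with circle, square and triangle for replicates 1, 2 and 3 and a black bar for the mean ± SD. The 2 groups are apart in each panel but the dimmer Nid1 probe set, with diabetic arrays higher for Lamb2 and Tinagl1 and lower in the others.

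The arrays were alike in overall level, with medians of 180.3 to 191.3 on the linear intensity scale. The tissue label, left ventricle, was checked for heart muscle only, and the chamber was not checked. All 16 cardiomyocyte markers were tested and lay at or above the 93.9th percentile of mean log2 signal. Of the 14 member probe sets, 11 had their lowest signal on diabetic 3 and 8 had their highest on normal 3. Normal 3 also lay apart from the other normal arrays on the first principal component of all tested probe sets (-27.6, against -13.8 and -14.4).

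The network collagens come first. Col4a1 and Col4a2 encode the chains of the most widespread type IV collagen, which build the covalent scaffold of the sheet. The Col4a2 signal was 2484.4, 2469.4 and 3021.7 in normal 1, 2 and 3 and 1686.1, 1523.8 and 1160.7 in diabetic 1, 2 and 3. The groups did not overlap, and the lowest normal array was well above the highest diabetic one. On the log2(intensity + 16) scale, on which every fold change here was taken, Col4a2 changed by -0.87 ± 0.18 (SE, n = 3 per group, limma adjusted p = 0.0396), a mean of 2658.5 ± 315 against 1457 ± 269 (SD).

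Col4a1 was read by 2 probe sets. The one with less signal held 2835.5, 2728.8 and 3065.7 in normal and 1887.1, 1834.5 and 1419.6 in diabetic arrays, again with no overlap. It fell by 0.75 ± 0.16 on the log2 scale (limma adjusted p = 0.0449). The brighter one held 3176.8, 3294.7 and 4059.3 in normal and 2792.3, 2464.2 and 1894.4 in diabetic arrays. Its log2 fold change was -0.56 ± 0.19 and did not pass (limma adjusted p = 0.136), although its groups did not overlap either. Both type IV calls stand close to the threshold. With 1 array left out, Col4a1 had an adjusted p of 0.0637 to 0.139 and was lost in each of the 6 fits, while Col4a2 stayed called without diabetic 1 and was lost in the other 5 fits (0.0478 to 0.134). The log2 fold change stayed between -0.83 and -0.62 for Col4a1 and between -0.98 and -0.72 for Col4a2 in those fits. Both calls were also lost with a pseudocount of 1 (0.0549 for Col4a1 and 0.0502 for Col4a2) and with no filter on dim probe sets (0.179 and 0.178).

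Col8a1 encodes a short-chain collagen that forms open lattices and is known from vessel walls and the endothelium. It gave 342.2, 399.9 and 363.8 in normal and 184.9, 270.1 and 118.9 in diabetic arrays, which differ widely among themselves. Its log2 fold change was -0.96 ± 0.25 (limma adjusted p = 0.0794), so it did not pass although no diabetic array reached a normal one. Without diabetic 2, its highest diabetic array, it passed at -1.22 (limma adjusted p = 0.0427), as it did with an intensity trend (0.0484).

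The multiplexins Col15a1 and Col18a1 are collagens with interrupted triple helices that carry glycosaminoglycan chains and sit on the outer face of basement membranes. Col15a1 showed the largest fall of the 10 genes. Its signal was 2007.4, 1787.6 and 2243.2 in normal arrays and 582.4, 534.5 and 483.1 in diabetic arrays. The lowest normal value is more than 3 times the highest diabetic one, and the spread within each group is small beside the gap. Col15a1 fell by 1.88 ± 0.15 on the log2 scale, which is 3.69-fold lower (limma adjusted p = 0.00129), and with 1 array left out it stayed between -1.96 and -1.80 and was called in each of the 6 fits.

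Col18a1, the source of the fragment endostatin, was read by 2 dim probe sets. The brighter held 242.8, 284.7 and 298.7 in normal and 231.2, 171.7 and 145.6 in diabetic arrays. The groups did not overlap, with diabetic 1 the nearest to the normal arrays, and the log2 fold change of -0.57 ± 0.19 did not pass (limma adjusted p = 0.135). The other held 169.6, 236.8 and 137.6 in normal and 71.7, 87.5 and 31.2 in diabetic arrays. It lay below the filter on dim probe sets and was not tested in the main comparison. In a fit with no filter its log2 fold change was -1.36 ± 0.34 (limma adjusted p = 0.21).

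**Figure D2:**
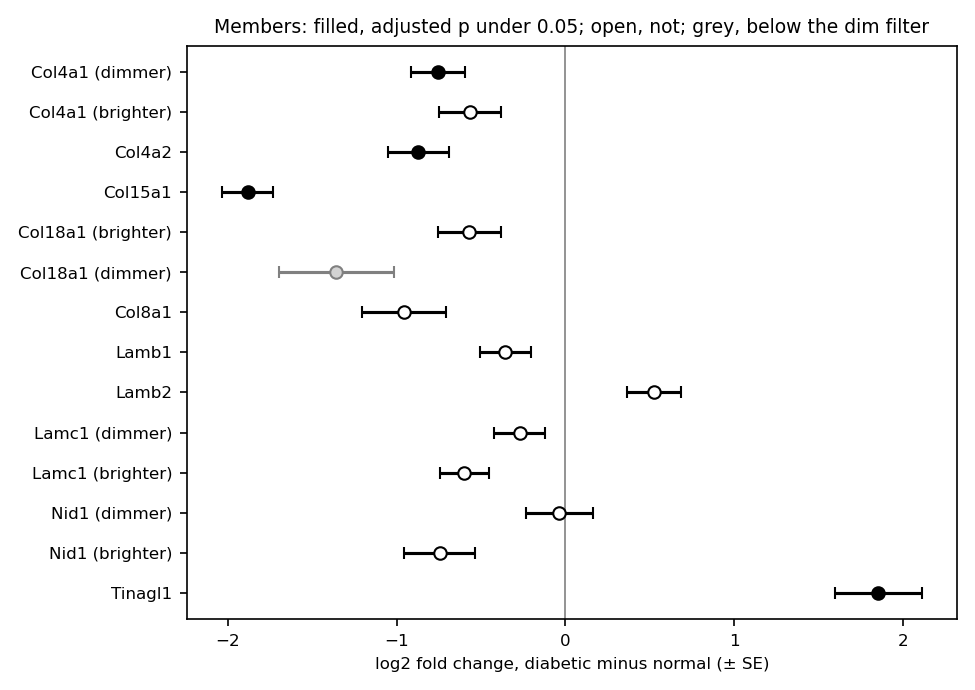
Log2 fold change (diabetic minus normal, on the log2(intensity + 16) scale) with its standard error for each member probe set, filled where limma's adjusted p was under 0.05, open where it was not, and grey for the Col18a1 probe set below the filter on dim signal. Col15a1 at -1.88 and Tinagl1 at 1.86 stand outside the other tested probe sets, which lie between -0.96 and 0.52.

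None of the laminin chains among the members (Lamb1, Lamb2 and Lamc1) passed the threshold. Lamb1 encodes a widespread beta chain. It gave 1842.4, 1871.0 and 2315.6 in normal and 1523.6, 1676.5 and 1483.9 in diabetic arrays, a log2 fold change of -0.35 ± 0.15 (limma adjusted p = 0.237). Lamb2, the beta chain that takes its place in the synaptic and some vascular and muscle basement membranes, had the opposite sign. Its signal was 3840.0, 3964.3 and 2969.8 in normal and 4917.4, 5366.1 and 5113.8 in diabetic arrays. The 3 diabetic values are tightly grouped above the normal ones, of which normal 3 is the lowest, and the log2 fold change was 0.52 ± 0.16 (limma adjusted p = 0.114, and 0.0417 with an intensity trend in the variance prior).

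Lamc1 encodes the gamma chain of nearly all laminins of muscle and vessel. Its brighter probe set gave 3537.7, 3406.0 and 3667.7 in normal and 2580.9, 2383.0 and 2060.4 in diabetic arrays. These groups are far apart relative to their spread, and the log2 fold change of -0.60 ± 0.15 missed the threshold (limma adjusted p = 0.0679). It passed with a pseudocount of 64 (0.0417), with a filter at the 60th percentile (0.0314) and with an intensity trend (0.0174). The dimmer probe set gave 857.8, 870.1 and 970.5 in normal and 712.8, 852.4 and 672.8 in diabetic arrays, with diabetic 2 close to the normal arrays and a log2 fold change of -0.27 ± 0.15 (limma adjusted p = 0.365).

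Nid1 encodes nidogen, which binds the laminin gamma chain and type IV collagen. Its brighter probe set gave 1811.3, 2285.1 and 2262.0 in normal and 1655.9, 1219.0 and 969.0 in diabetic arrays, a log2 fold change of -0.75 ± 0.21 that did not pass (limma adjusted p = 0.0946, and 0.0378 with an intensity trend). Its dimmer probe set gave 435.7, 306.9 and 356.7 in normal and 289.3, 445.7 and 342.5 in diabetic arrays. The groups overlap throughout at that probe set, and its log2 fold change was -0.04 ± 0.20. The log2 fold changes of the 2 Nid1 probe sets were 0.71 apart, but their within-array difference overlapped between groups (exact permutation p = 0.2, two-sided, n = 3 per group). The same held for Col18a1, at 0.79 apart (exact permutation p = 0.2). The within-array differences of the 2 Col4a1 probe sets (0.19 apart) and of the 2 Lamc1 probe sets (0.33 on the log2 scale, the brighter having the more negative value) did not overlap, each with the smallest p the exact permutation test can give, 0.1.

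Tinagl1 encodes a secreted matricellular protein of basement membranes that is related to cathepsins but is not an active protease. Its signal was 632.6, 402.9 and 334.9 in normal arrays and 1628.6, 2106.5 and 1280.2 in diabetic arrays. Every diabetic array held at least 2 times the highest normal value, although both groups vary widely. Tinagl1 rose by 1.86 ± 0.26 on the log2 scale, which is 3.62-fold (limma adjusted p = 0.00892). With 1 array left out it stayed between 1.67 and 2.11 and was called in each of the 6 fits, with an adjusted p of at most 0.037 without normal 2. With no filter on dim probe sets, where only 18 of 15866 probe sets were called, it missed the threshold (0.0826) and Col15a1 was the 1 member that passed.

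**Figure D3:**
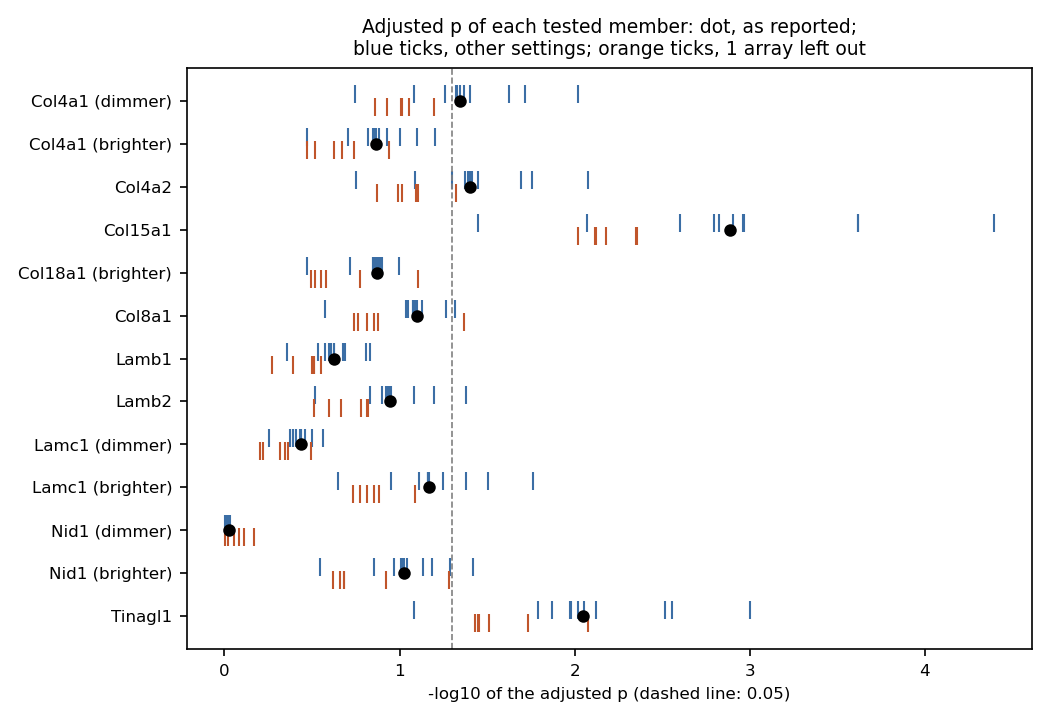
Minus log10 of limma's adjusted p for the 13 tested member probe sets, as reported (black dots), under other settings (blue ticks) and with 1 array left out (orange ticks), with a dashed line at 0.05. Col15a1 lies past the line in every fit shown, Tinagl1 in all but the fit with no filter, and the type IV collagen genes on either side of it.

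Members that are parts of the same sheet, or that can stand in for each other, were set against each other within each array. The question was whether they changed by unequal amounts. The brightest tested probe set stood for each gene, and 7 pairs were compared. In 5 of the 7 the within-array difference did not overlap between groups. For each of these 5 the exact permutation test (two-sided, n = 3 per group) gave p = 0.1, the smallest it can give, and 0.14 after Benjamini-Hochberg adjustment over the 7 pairs, so no pair can pass a threshold of 0.05 with this design. Levels of different probe sets were not compared, only how their difference moved. For Lamb1 minus Lamb2 and for Tinagl1 minus Lamc1 the lack of overlap follows from the single genes and adds nothing to them. In both pairs, 1 gene was lower and the other higher on every diabetic array than on every normal array. The share of all gene pairs without overlap was not computed.

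Lamb1 changed relative to Lamb2 by -0.88 ± 0.24 on the log2 scale (SE over arrays), with Lamb1 lower and Lamb2 higher in the diabetic arrays. Col4a1 changed relative to Col4a2 by 0.31 ± 0.02. That value uses the brighter Col4a1 probe set, and with the other it was 0.12 ± 0.06, with overlapping groups (exact permutation p = 0.2). Col15a1 changed by -1.31 ± 0.16 relative to Col18a1 and by -1.32 ± 0.11 relative to Col4a1. With the dimmer probe sets the value was -1.13 ± 0.08 relative to Col4a1, still without overlap, but -0.53 ± 0.42 relative to Col18a1, where the groups overlapped (exact permutation p = 0.2).

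Tinagl1 changed by 2.45 ± 0.32 relative to Lamc1. The remaining pairs overlapped. Lamc1 changed relative to its binding partner Nid1 by 0.15 ± 0.17 (exact permutation p = 0.5), and Col4a1 relative to Lamc1 by 0.03 ± 0.11 (exact permutation p = 0.8), 2 differences within the spread between arrays. Both depended on the probe set, since Col4a1 by its dimmer probe set changed relative to Lamc1 by -0.15 ± 0.05 with the brighter and -0.48 ± 0.11 with the dimmer Lamc1 probe set, in both cases without overlap (exact permutation p = 0.1).

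**Figure D4:**
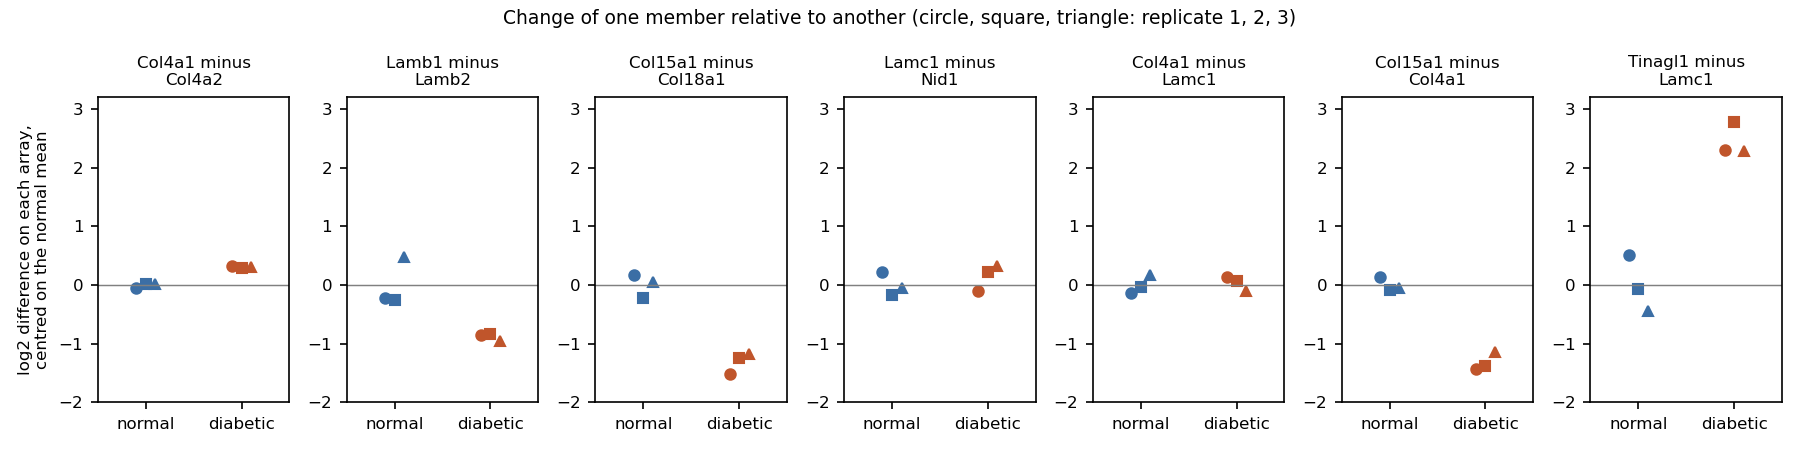
Log2 signal of one member minus that of another on each array, centred on the mean of the normal arrays, for 7 pairs (blue, normal; orange, diabetic; circle, square and triangle for replicates 1, 2 and 3). The groups are apart in 5 panels and overlap for Lamc1 minus Nid1 and Col4a1 minus Lamc1.

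Other components of basement membranes were also lower in part. With each gene counted by its brightest tested probe set, 3 of 15 tested fell and none rose, where 1.40% of all 6978 tested genes fell and 1.53% rose. The list's median log2 fold change was -0.52. The list includes the type VI collagen genes Col6a1, Col6a2 and Col6a3, and among its called genes only Lama4 is not one of them. A median without type VI collagen was not computed. Lama4, the laminin alpha chain typical of endothelium, fell from 959 ± 103 to 448 ± 106 (log2 -1.09 ± 0.20, limma adjusted p = 0.0243). It was called without normal 1, diabetic 1 or diabetic 3 and lost in the other 3 such fits, at most 0.0931 without normal 3. Col6a3 (log2 -1.01 ± 0.20, limma adjusted p = 0.0344) and Col6a1 (log2 -0.69 ± 0.15, limma adjusted p = 0.0489) encode type VI collagen, which anchors basement membranes to the interstitium. Col6a3 was called without diabetic 1 and lost with each other array left out, at most 0.106 without normal 3, and Col6a1 was lost in each of the 6 fits, at most 0.137 without diabetic 2. Pxdn, the peroxidase that crosslinks type IV collagen, was at -0.80 and did not pass (limma adjusted p = 0.0644).

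The following genes of that list were named after their values were seen. Hspg2, which encodes perlecan, was at -0.61 (limma adjusted p = 0.0702), and Nid2, the other nidogen, at -0.59 (limma adjusted p = 0.127). Fbln2 at 0.61 and Ntn1 at 0.40 had the other sign and did not pass (limma adjusted p = 0.116 and 0.18). Col4a5, another type IV collagen chain, was at -0.20 and Fbln1 at 0.02, both with overlapping groups (limma adjusted p = 0.537 and 0.978). Over the 15 tested genes, every diabetic array lay below every normal array for 9 and above for 3 (Fbln2, Ntn1 and Lama5). The laminin alpha chains did not move together, since Lama2, the main alpha chain of muscle, was at 0.05 with overlapping groups (3202 in normal and 3303 in diabetic arrays) and Lama5 at 0.34 (limma adjusted p = 0.254). The difference between Lama4 and the other alpha chains was not tested.

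Of 26 tested receptors and their partners, 2 fell and none rose, with a median of 0.00. Bcam, a laminin receptor, changed by -0.76 ± 0.16 on the log2 scale (limma adjusted p = 0.0398, called without diabetic 1 and lost with each other array left out, at most 0.135 without normal 3). Itga6, an integrin alpha chain that binds laminin, changed by -1.10 ± 0.24 (limma adjusted p = 0.0489, called without diabetic 3 and lost with each other array left out, at most 0.15 without normal 3). The count that fell was 1 to 4 under other settings with a dim filter, and 0 to 1 with 1 array left out. Without normal 1 none fell and 1 rose, Sdc4, named after its value was seen (limma adjusted p = 0.0354). With all arrays Sdc4 was at 0.98 with overlapping groups and did not pass (limma adjusted p = 0.128). Lims1, an adaptor of integrin-linked kinase, was at -0.69 (limma adjusted p = 0.0512) and Ddr2, a collagen receptor, at -0.64 (limma adjusted p = 0.052).

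Of 18 tested genes for collagen folding and crosslinking, 3 fell and none rose, with a median of -0.20. Serpinh1, the chaperone of all triple-helical collagens, fell from 2259 ± 243 to 819 ± 4.74 (log2 -1.44 ± 0.14, limma adjusted p = 0.00297) and was called with any 1 array left out. Pcolce, which speeds the trimming of fibrillar procollagen, changed by -1.08 ± 0.17 (limma adjusted p = 0.013, and 0.0517 without diabetic 3). Loxl1, of the lysyl oxidase family, changed by -1.83 ± 0.39 (limma adjusted p = 0.047, called without diabetic 1 or 3 and lost with each other array left out, at most 0.133 without normal 3). Lox, of the same family and named after its value was seen, had the other sign. It was at 0.74 with every diabetic array above every normal array, and did not pass (limma adjusted p = 0.0937, and 0.0314 without diabetic 3).

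Proteases and inhibitors that act on basement membranes had the other sign where they passed. Of 13 tested, 2 rose and none fell, with a median of 0.06. Plat, the tissue plasminogen activator, rose from 986 ± 161 to 1987 ± 288 (log2 1.00 ± 0.18, limma adjusted p = 0.0243, called without normal 1 or diabetic 3 and lost with each other array left out, at most 0.0829 without diabetic 2). Ctsl, the lysosomal protease cathepsin L, rose from 4196 ± 894 to 8611 ± 1030.3 (log2 1.05 ± 0.19, limma adjusted p = 0.0271, called without normal 1, normal 2 or diabetic 1 and lost in the other 3 such fits, at most 0.0944 without diabetic 2). Mmp14 was at 0.72 (limma adjusted p = 0.119) and Adamts9 at -0.54 (limma adjusted p = 0.158).

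The fibrillar and associated collagens, which form the interstitial fibres, are the most closely related family. Of 8 tested, 5 fell and none rose, and their median was -0.96, beside -0.58 for the 10 basement membrane genes counted in that way. Col3a1 changed by -1.97, Col1a2 by -1.44, Col1a1 by -1.24 and Col5a1 by -0.79 on the log2 scale (limma adjusted p = 0.00184, 0.0065, 0.0183 and 0.0436). The other called gene, Col5a2, was named after its value was seen (log2 -0.72). Col1a1 was lost without normal 1, normal 3 or diabetic 3, at most 0.0704 without normal 3. Col5a1 and Col5a2 were called without diabetic 1 and lost with each other array left out, at most 0.133 and 0.132 without normal 3. The fibrillar count was 2 without normal 1, normal 3 or diabetic 3, 3 without normal 2 or diabetic 2, and 5 without diabetic 1. Whether the 2 families differ was not tested.

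**Figure D5:**
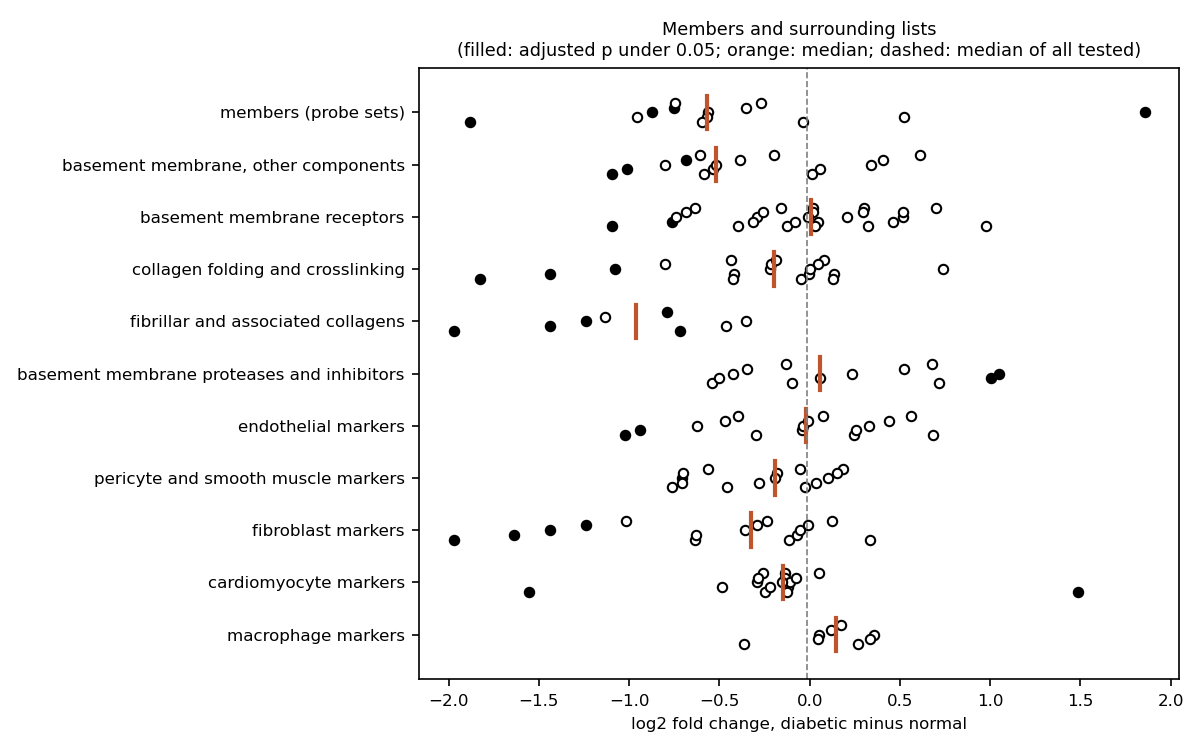
Log2 fold change (diabetic minus normal) of the 13 tested member probe sets and of the tested genes of each list with at least 4 (1 probe set per gene), filled where limma's adjusted p was under 0.05, with an orange bar at each median and a dashed line at the median of all tested probe sets. Members and other basement membrane components (type VI collagen included) have medians of -0.57 and -0.52, while receptors and endothelial markers have medians close to 0.

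Markers of the cells that make these sheets are given beside the results, and their part in them was not tested. Of 16 tested endothelial markers, 2 fell and none rose (median -0.02), and their summed signal was 15001 to 17259 in normal and 16014 to 16759 in diabetic arrays, which overlap. Tie1, an endothelial receptor, changed by -0.94 ± 0.17 (limma adjusted p = 0.0222, called without normal 1 or diabetic 1) and Aplnr, the apelin receptor, by -1.02 ± 0.21 (limma adjusted p = 0.0391, called without normal 3). Both were lost with each other array left out, at most 0.0811 without normal 3 and 0.114 without diabetic 2. Icam2 was at -0.63 and Ptprb at 0.56, and neither passed (limma adjusted p = 0.0513 and 0.0893).

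Of 15 tested pericyte and smooth muscle markers, 1 fell and none rose (median -0.19), with sums of 10335 to 11542 in normal and 8861 to 9107 in diabetic arrays. The gene was Vtn, vitronectin (log2 -0.71 ± 0.14, limma adjusted p = 0.0374), which was lost with any 1 array left out (at most 0.108 without normal 3), and Rgs5, a pericyte marker, was at -0.56 (limma adjusted p = 0.114). Of 16 tested fibroblast markers, 4 fell and none rose (median -0.32), and all 4 encode matrix proteins: Col3a1, Col1a2 and Col1a1, which are in the fibrillar list too, and the proteoglycan Lum (log2 -1.64). The fibroblast sum, which holds those collagens, was 63664 to 73891 in normal and 47318 to 54628 in diabetic arrays.

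Cardiomyocyte markers summed to 413916 to 510622 in normal and 400336 to 490015 in diabetic arrays, with 1 of 16 risen (Myh7) and 1 fallen (Myh6). Myh6 was called without diabetic 2 or 3 and lost with each other array left out, at most 0.0769 without normal 1. None of 8 tested macrophage markers passed (limma), and their sums overlapped (10057 to 12062 and 9422 to 12344). Of the Schwann and nerve markers 1 of 8 on the array was bright enough to test (Pmp22, log2 -0.19), and of the mesothelial and epithelial markers 1 of 9 (Wt1, log2 -0.20). The sums hold only genes bright enough to test, so they cannot show whether a cell type is present or absent.

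Probe sets with the nearest profile over the 6 arrays were found for Col15a1 and for Tinagl1, by the root mean square difference of log2 values centred on each probe set's mean. For Col15a1 the 5 nearest were Col3a1 (0.15), Lad1 (0.17), Ckb (0.20), the dimmer Col1a2 probe set (0.21) and Cdr2 (0.23). Their correlations with Col15a1 over 6 arrays were r = 0.978 to 0.998. For Tinagl1 the 5 nearest were Ndrg1 (0.20), Sbsn (0.23), Eif4ebp1 (0.25), Pik3c2g (0.28) and Cbr1 (0.30), with r = 0.953 to 0.99. These values mostly reflect the difference between the groups, which all of these genes share, and are a description of 6 arrays.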

How the data were processed

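The deposited values are linear signal intensities, 1 per probe set and array. The software behind them is not given in the sources used here. From the values, the authors had scaled the arrays to a common level (mean after trimming 2% of probe sets at each end 500.2 on every array), so they were used as deposited. Of 15866 probe sets that are not controls, 9519 had a mean log2(intensity + 16) above the 40th percentile over all arrays and were tested, a filter blind to group. The test was limma's moderated one (version 3.58.1, R 4.3.3; lmFit, then eBayes) with no term besides group, and it was checked on simulated data. There it called 6% of planted log2 changes of 0.5, 60% of those of 1.0 and 92% of those of 2.0. A probe set that did not pass may therefore still differ by amounts of the smaller sizes. Pairs of members were compared with exact permutation tests over arrays (scipy 1.17.1). Gene symbols were those of the array annotation, updated through the GRCr8 gene table, and 12748 of 12783 single-gene probe sets matched by gene number. In lists each gene stood by its brightest tested probe set. Each member, up to 4 genes per list with the smallest p and the 5 nearest profiles to Col15a1 and Tinagl1 are named. The members, lists and pairs were chosen with earlier results of these data known. Alternatives covered the pseudocount (1 and 64), scaling, filter (none, and the 60th percentile), variance prior, array weights, replicate block and each array left out. The number of arrays limits the precision, and no detection calls were used.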

Additional observations from a re-analysis of the deposited data

How the results depend on the processing

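The tested members were refitted under 17 alternatives, of which the filter on the mean linear signal was chosen after seeing the data. Col8a1 and the brighter Col18a1 probe set lay below the filter at the 60th percentile and were not refitted there. Of 219 refits of a member probe set, 191 kept their direction and side of the threshold, 18 lost a call, 7 gained one and 3 changed sign. The 3 sign changes were those of the dimmer Nid1 probe set, at 0.0062 with array weights, 0.09 without normal 1 and 0.10 without diabetic 1 (-0.20 to 0.10 over the fits with 1 array left out). The count of member probe sets that fell (3) was 1 with a pseudocount of 1, with no filter and with the replicate block, 6 with an intensity trend, and 1 to 2 with 1 array left out. The count that rose (1) was 0 with no filter and 2 with an intensity trend, and stayed at 1 with each array left out. Over all probe sets 274 were called, against 18 with no filter, where 15866 were tested, 437 with the filter at the 60th percentile, 183 with the replicate block (where the adjusted p was 0.0829 for Col4a1 and 0.0819 for Col4a2) and 527 with an intensity trend. Over the 12 lists 21 genes were called, against 2 with no filter, 13 with the replicate block and 7 to 16 with 1 array left out. Col4a1 relative to Lamc1 changed sign without normal 1 (-0.035) and without diabetic 1 (-0.02), with a range of -0.035 to 0.11 over the fits with 1 array left out. With other probe sets of the same genes, chosen after seeing the data, it was -0.48, -0.15 and -0.30, and Lamc1 relative to Nid1 turned from 0.15 to -0.23 and -0.56 with the dimmer Nid1 probe set. The number of pairs without overlap was 5 in each other alternative run, and the replicate block was not run for pairs. Same-numbered arrays deviated from their group means with correlations of 0.07, 0.01 and 0.02, although 4 of 6 arrays correlated best with their own number. The labels give a number and no pairing, and the numbers were not taken as pairs. Whether they mark pairs cannot be told from these values. The cause of these changes was not tested, beyond the fewer arrays or other probe sets that an alternative tests. Signal over background was not measured here.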
